A study of Mus musculus with 169 samples.

Results

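The genes described here encode the NF-kB transcription factors and proteins that regulate them. They are the 5 subunits Nfkb1, Nfkb2, Rel, Rela and Relb, the IkB family members Nfkbia, Nfkbie, Nfkbiz and Bcl3, and the deubiquitinase Tnfaip3. They were chosen by name as the core of the pathway, and every array probe whose transcript accession belongs to one of these 10 genes was taken. This gave 12 probes out of 55681 on the array, where 20145 gene symbols are named. Nfkb1 and Relb have a pair of probes each and the other genes 1 probe each. All 12 probes were well above background on enough arrays to be tested. Where a gene has more than 1 probe, the probe with the higher mean level stands for the gene and the other is given beside it.

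NF-kB factors are dimers that bind a short sequence called the kappa B site. In resting cells the inhibitors of the IkB family hold them in the cytoplasm. When a receptor for tumour necrosis factor, interleukin 1 or a microbial product signals, the IkB kinases mark IkB for destruction and the dimers enter the nucleus, where they switch on cytokine genes and also the genes of their own inhibitors, so that the response ends itself. In microglia, the resident macrophages of the brain, this pathway is a main route to inflammatory gene expression.

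The samples were microglia from Grn+/+ (WT) and Grn-/- (KO) mice on a C57B/6J background. Grn encodes progranulin, a secreted and lysosomal protein, and the mice lack it in every cell. Cells were isolated on Percoll gradients and sorted with antibodies to CD11b, CD45 and Ly6G, and their RNA was labelled with 1 dye and hybridised to 15 Agilent arrays, 4 from WT and 3 from KO mice at 4 months of age and 4 from WT and 4 from KO mice at 16 months. The labels do not say how many animals gave an array or whether each array came from a separate animal, so p-values measure the spread between these samples, which may be in part technical. The question was how loss of progranulin changes gene expression in microglia at each age.

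A level below is log2 of a probe's signal over the 75th percentile of its array, so 0 is the 75th percentile and each unit is a doubling. Values under a common floor of -4.94 were set to it. Among the WT arrays of 16 months, arrays 1 and 2 differed by a scaled median deviation of 0.12 and arrays 3 and 4 by 0.094, less than repeat spots on 1 array (0.19 at the least) and less than other arrays of one group (0.38 to 1.28). Each pair was therefore averaged, and the WT group of 16 months has 2 samples, called the first (arrays 1 and 2) and the second (arrays 3 and 4). Grn itself was at background on all 4 KO arrays of 16 months, at least 1010-fold lower than in WT (adjusted p = 6.41e-07), and at 4 months it differed by -9.03 log2 units in KO (SE 0.28, adjusted p = 4.94e-07), as the genotype labels state.

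The KO arrays of 16 months stood apart from the rest. Their 75th percentile signal was 507 to 1037, against 1010 to 1752 on the other 11 arrays, and 54.9 to 63.6% of their spots were well above background, against 65.4 to 76.9%. Along component 1 of a principal component analysis (59.9% of the variance) they lay at 241.9 to 294.4 and all other samples at -175.5 to -11.1. Of 15 markers of homeostatic microglia, 13 fell in KO at 16 months (median difference -2.91), and their summed level on the linear scale was 267 to 706 in KO and 1388 to 2475 in WT. Of 4 markers that myeloid cells share, Itgam (CD11b of the sort), Aif1 and Spi1 fell, and Ptprc (CD45 of the sort) did not pass (-0.54, adjusted p = 0.659); their summed level was 18.9 to 52.1 in KO and 101.4 to 180.9 in WT. Of 8 choroid plexus markers 3 rose (summed level 917 to 1645 in KO and 343 to 586 in WT), of 8 astrocyte markers 3 rose and 1 fell (47.2 to 104.7 in KO and 31.3 to 41.9 in WT), the 1 red blood cell marker tested rose by 4.42, and of 8 oligodendrocyte markers 1 rose and 3 fell (10.67 to 13.33 in KO and 13.39 to 21.61 in WT).

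At 16 months 7 of the 10 NF-kB genes fell in KO microglia and none rose (limma, adjusted p under 0.05 over all probes), where 14.1% of 17796 tested genes fell and 20.4% rose. The count was 0 when the 16-month arrays were fitted without the 4-month ones and 3 without the second WT sample. The 7 were Nfkb1, Nfkb2, Rel, Nfkbia, Nfkbie, Bcl3 and Tnfaip3, and in each of them every KO sample was below both WT samples, which 17.1% of all genes also showed (25.7% had every KO sample above). All 10 differences were below 0, against 43.5% of all genes. The median over the 10 genes was -2.72 (range -3.70 to -0.77), beside a median of 0.20 over all genes. The falls accompanied the changes of the microglial, myeloid and other markers given above, and the part of those cells in the result was not tested. In RNA from sorted cells in bulk, fewer cells of a type and less RNA per cell cannot be told apart.

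Among the subunits, Nfkb1 (chr3:135584655-135691969 in GRCm38.p6, as are all positions here), which encodes p105, the precursor of the p50 subunit, had levels of 1.03 and 2.42 in the WT samples of 16 months and of -0.66, -1.41, -0.33 and -0.03 in the KO samples. All 4 KO samples thus lay more than 1 log2 unit below the lower WT sample. The difference was -2.33 (SE 0.48, adjusted p = 0.00508), a 5.03-fold lower signal. The other probe of Nfkb1 was dim, above background on 1 of 4 KO arrays and 3 of 4 WT arrays, and its difference of -1.02 (SE 0.82, adjusted p = 0.399) did not pass the test.

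Nfkb2 (chr19:46300994-46312400) encodes p100, the precursor of p52 and itself an inhibitor of RelB dimers. Its levels were -0.52 and 0.53 in WT and -3.44, -1.49, -1.86 and -3.20 in KO. The groups did not overlap, and KO was lower by 2.50 log2 units on average (-2.50, SE 0.53, adjusted p = 0.00581), or 5.66-fold. Rel (chr11:23736847-23770969), the gene of c-Rel, which drives cytokine genes in myeloid and lymphoid cells, lay at -2.55 and -0.67 in WT and at -4.94, -4.94, -3.84 and -4.94 in KO. It was above background on 4 of 4 WT arrays and on 1 of 4 KO arrays, and 3 of the 4 KO values are the floor. The difference of -3.05 (SE 0.52, adjusted p = 0.00192) therefore depends on where the floor was set.

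Rela (chr19:5637442-5648134) encodes p65, the subunit that carries most of the activating function of the canonical p50:p65 dimer. Its levels were 4.42 and 5.20 in WT and 3.38, 5.20, 3.91 and 3.69 in KO. KO sample 2 was as high as the higher WT sample and the groups overlapped. The difference was -0.77 (95% confidence interval -1.73 to 0.19, adjusted p = 0.214). Relb (chr7:19606217-19629438), the partner of p52 in the non-canonical pathway, had levels of 1.15 and 2.89 in WT and of -0.04, 2.10, 1.40 and 0.59 in KO, where 2 KO samples were above the lower WT sample. It differed by -1.01 (95% confidence interval -2.26 to 0.25, adjusted p = 0.212), and its other probe by -0.47 (SE 0.56, adjusted p = 0.586). Whether these genes differ less than the called ones was not tested.

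Of the 4 IkB family members, whose proteins bind the dimers, 3 fell. Nfkbia (chr12:55489409-55492647) encodes IkB-alpha, an inhibitor that NF-kB induces quickly. Its levels were 6.57 and 7.51 in WT and 3.99, 4.88, 4.65 and 5.30 in KO. Every KO sample was more than 1 log2 unit below the lower WT sample, and KO was 5.05-fold lower on average (-2.34, SE 0.36, adjusted p = 0.0012). Nfkbie (chr17:45555700-45563169), which encodes IkB-epsilon, was at 2.63 and 2.78 in WT and at 0.10, -2.88, -1.09 and -0.12 in KO. The WT samples nearly coincided while the KO samples spread over almost 3 units, and its 13-fold lower signal was the largest difference among the members at this floor, which limits the differences of Rel, Bcl3 and Nfkbiz (-3.70, SE 0.70, adjusted p = 0.00325).

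Bcl3 (chr7:19808462-19822824) and Nfkbiz (chr16:55811375-55838954) encode nuclear IkB proteins, which act on p50 and p52 dimers at the DNA. Bcl3 had levels of -1.01 and 0.48 in WT and of -4.13, -2.31, -1.89 and -4.94 in KO, where it was above background on 3 of 4 arrays. All KO samples were below both WT samples, and the difference was -3.05 (SE 0.77, adjusted p = 0.0138). Nfkbiz was at 0.06 and 2.35 in WT and at -2.25, -4.94, -0.73 and 0.58 in KO, also with 3 of 4 KO arrays above background. KO sample 4 lay above the first WT sample, so the groups overlapped. Its mean difference of -3.04 (95% confidence interval -5.72 to -0.37) did not pass after adjustment (adjusted p = 0.0827).

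Tnfaip3 (chr10:19000910-19015410) encodes A20, which removes ubiquitin chains from signalling proteins upstream of the IkB kinases and is itself an NF-kB target. It lay at 3.76 and 6.42 in WT and at 1.88, 1.26, 2.40 and 3.09 in KO. The WT samples were further apart from each other than any of the KO samples, and the groups did not overlap. The difference was -2.94 (SE 0.66, adjusted p = 0.00763), or a 7.65-fold lower signal.

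**Figure D1:**
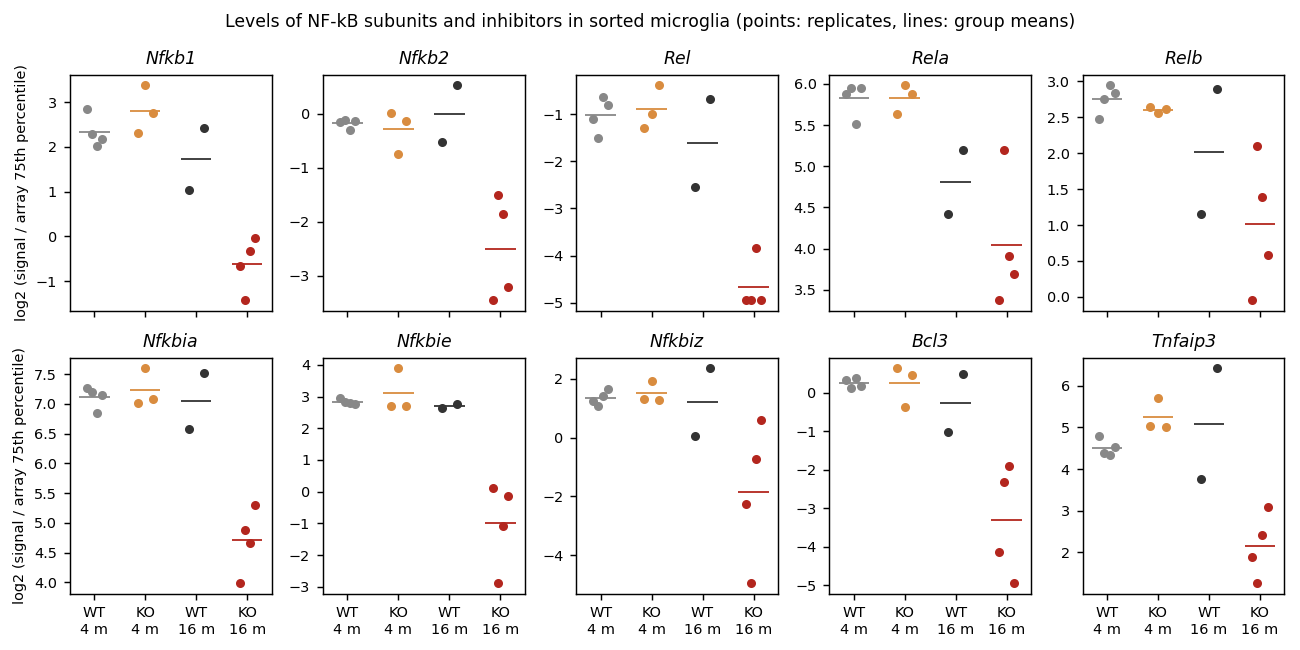
Level of each gene (log2 of signal over the array's 75th percentile, 1 panel per gene, each with its own vertical scale) in WT and KO microglia of 4 and 16 months; points are samples and lines group means. The KO samples of 16 months lie below both WT samples of 16 months in 7 of 10 genes, as in 17.1% of all genes. They lie below all 4-month samples in 10 of 10. That pattern was not counted over all genes, and the ages were on different slides. The 2 WT samples of 16 months are far apart for Tnfaip3 (3.76 and 6.42).

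Promoter sequences are shown because several of these genes are known as targets of NF-kB; whether such sites have a part in the differences was not tested. RefSeq promoter windows on GRCm38.p6, running from 250 bases before to 50 after a transcript start, matched 7 of the 10 genes with 10 windows; Nfkb1, Relb and Nfkbiz had no entry. The kappa B consensus, searched on both strands, was present in 8 of the 10 windows and in 6 of the 7 genes (all but Rela), where 8.46% of 32851 windows and 9.55% of 27025 genes in the whole table held it. The 150 bases before the start are shown for the 5 genes that fell and hold a match in this stretch, and for Rela, which did not pass the test, with each consensus match in capitals. The display was thus chosen by call and by match. The window of Bcl3 and the other windows of Tnfaip3 and Nfkb2 hold no match in this stretch and are not shown.

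Nfkbia, chr12:55492648-55492797, minus strand: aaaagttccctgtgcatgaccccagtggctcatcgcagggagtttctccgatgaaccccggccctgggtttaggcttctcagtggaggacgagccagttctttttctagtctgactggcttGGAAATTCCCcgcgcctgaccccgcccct
Nfkbie, chr17:45555550-45555699, plus strand: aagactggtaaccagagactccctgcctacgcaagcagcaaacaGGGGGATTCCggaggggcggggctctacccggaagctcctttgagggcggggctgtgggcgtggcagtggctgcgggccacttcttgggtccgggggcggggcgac
Tnfaip3, chr10:19015411-19015560, minus strand: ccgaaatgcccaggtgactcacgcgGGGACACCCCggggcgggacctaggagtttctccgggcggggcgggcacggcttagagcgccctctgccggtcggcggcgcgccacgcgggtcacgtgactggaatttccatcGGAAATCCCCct
Rel, chr11:23770970-23771119, minus strand: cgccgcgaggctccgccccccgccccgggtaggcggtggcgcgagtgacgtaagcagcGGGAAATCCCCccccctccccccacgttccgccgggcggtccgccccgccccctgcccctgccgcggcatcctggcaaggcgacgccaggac
Nfkb2, chr19:46304587-46304736, plus strand: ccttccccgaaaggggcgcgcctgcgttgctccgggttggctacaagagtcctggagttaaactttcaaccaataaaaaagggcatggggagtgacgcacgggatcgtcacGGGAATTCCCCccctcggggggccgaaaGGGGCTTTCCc
Rela, chr19:5637391-5637540, plus strand: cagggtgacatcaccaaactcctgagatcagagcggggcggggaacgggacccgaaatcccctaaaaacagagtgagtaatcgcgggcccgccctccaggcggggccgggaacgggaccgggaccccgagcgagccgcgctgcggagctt

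In these sequences the match of Nfkbia begins 29 bases before the start and that of Nfkbie 106 bases before it. Tnfaip3 has matches that begin at 125 and 12 bases, Rel at 92 bases, and Nfkb2 at 39 and 11 bases before the start, and in Rel and Nfkb2 overlapping matches run together into a stretch of 11 capitals. In Bcl3 the match lies 3 bases into the transcript and is outside the stretch shown. Rela had no match in its window. A match is a string of letters and says nothing about binding in these cells.

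At 4 months none of the 10 genes passed the test in either direction, where 0.0112% of 17793 genes fell and 0.0169% rose, 5 genes in all, and 1052 had an unadjusted p under 0.05. No member had an unadjusted p under 0.05 in this fit, whose spread, and so the intervals below, is shared with the 16-month samples. Fitted without the 16-month arrays, 5516 probes instead of 2757 had an unadjusted p under 0.05, and no member passed after adjustment. The median difference over the members was 0.12 (range -0.15 to 0.74), beside 0.036 for all genes, and 3 of 10 were below 0 against 46.2% of all genes. Nfkbia was at 7.27, 7.19, 6.85 and 7.14 in WT and at 7.01, 7.59 and 7.08 in KO. These groups overlapped in part, with a difference of 0.12 (95% confidence interval -0.59 to 0.83), which does not reach the fall seen at 16 months. Rela was at 5.88, 5.95, 5.51 and 5.95 in WT and at 5.63, 5.98 and 5.88 in KO (difference 0.0055, 95% confidence interval -0.84 to 0.85).

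Tnfaip3 was the one member whose groups did not overlap at 4 months, which 6.58% of all genes showed in the same direction and 5.23% in the other. Its levels were 4.80, 4.40, 4.34 and 4.52 in WT and 5.04, 5.72 and 5.01 in KO. Every KO sample was thus above every WT sample, and the difference of 0.74 (95% confidence interval -0.54 to 2.03, adjusted p = 1) did not pass. Nfkb1 had the next largest difference, 0.47 (95% confidence interval -0.46 to 1.41), with 2.85, 2.28, 2.02 and 2.18 in WT and 2.30, 3.38 and 2.75 in KO. Its other probe, which was dim and at the floor in KO sample 2, went the opposite way, by -0.87 (SE 0.73). The 2 probes therefore gave no common direction.

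Nfkbie at 4 months was at 2.94, 2.82, 2.80 and 2.76 in WT and at 2.69, 3.89 and 2.72 in KO. KO sample 2 alone was high, and this sample was also the highest of the 3 for Nfkb1, Nfkbia, Nfkbiz, Rela and Tnfaip3. It was the lowest for Nfkb2, at -0.74 against -0.15, -0.12, -0.30 and -0.13 in WT and 0.02 and -0.13 in the other KO samples, for Bcl3 at -0.36 and for Relb at 2.56. Rel, at -1.10, -1.51, -0.64 and -0.80 in WT and -1.30, -0.99 and -0.38 in KO, and Relb, at 2.47, 2.75, 2.94 and 2.84 in WT and 2.64, 2.56 and 2.61 in KO, overlapped between genotypes. Nfkbiz spanned 1.08 to 1.65 in WT and 1.28 to 1.92 in KO, and Bcl3 0.13 to 0.38 in WT and -0.36 to 0.64 in KO.

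Summed levels of the markers of several other cell types did not overlap between genotypes at 4 months, some higher and some lower in KO, while those of microglia did overlap. The summed level of 8 neutrophil markers was 34.5 to 120.2 in WT and 203.7 to 258.3 in KO, that of 5 monocyte markers 3.93 to 12.1 in WT and 16.0 to 37.6 in KO, that of 7 border macrophage markers 2.51 to 3.61 in WT and 5.33 to 9.01 in KO, and that of 8 choroid plexus markers 10.9 to 126.6 in WT and 182.4 to 287.8 in KO. Astrocyte markers were also higher, at 28.8 to 38.6 in WT and 39.7 to 44.2 in KO, whereas markers of T, NK and B cells (9.66 to 10.9 in WT and 5.39 to 9.19 in KO) and of oligodendrocytes (19.6 to 28.3 in WT and 17.9 to 19.5 in KO) were lower. None of these genes passed the test singly at 4 months. The 15 homeostatic markers summed to 2091 to 2635 in WT and 2022 to 3176 in KO. The part of these cells in the higher Tnfaip3 of 4-month KO samples was not tested. At 16 months the neutrophil markers spanned 0.62 to 249.5 in KO and 80.7 to 365.7 in WT, with Cxcr2 at the floor in both genotypes, and the border macrophage markers 23.3 to 85.1 in KO and 45.8 to 88.3 in WT, with Cd163 at background on all KO arrays.

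**Figure D2:**
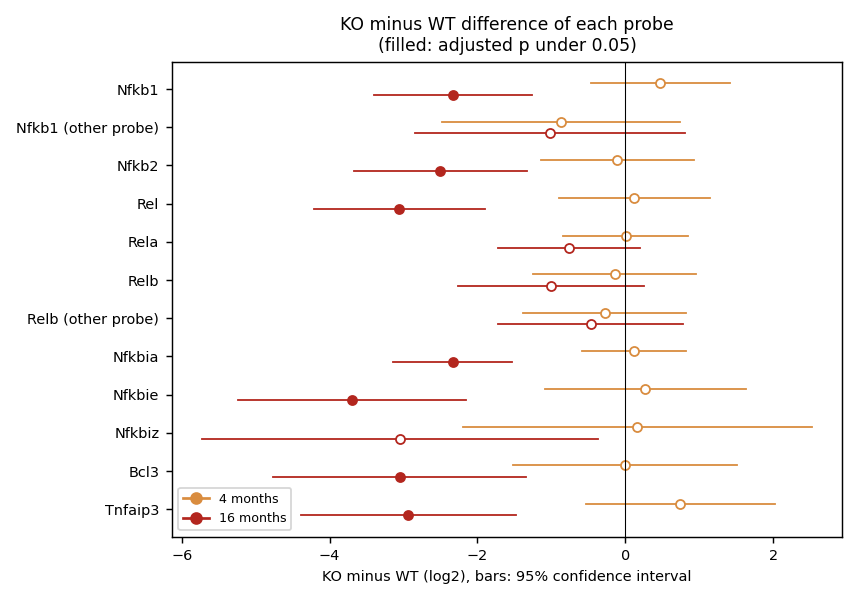
KO minus WT difference (log2) of each of the 12 probes at 4 months (orange) and 16 months (red), with 95% confidence intervals; filled points have an adjusted p under 0.05. All 7 filled points are red and lie at -2.33 or lower, while at 4 months every interval includes 0.

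The difference between the ages was tested directly, as the KO effect at 16 months less that at 4 months. It was more negative at 16 months in 5 of 10 genes and more positive in none, where 6.36% of 17793 genes were called in the first direction and 7.22% in the other. These were Nfkbie (-3.97, SE 0.93, adjusted p = 0.023), Tnfaip3 (-3.68, SE 0.88, adjusted p = 0.0247), Rel (-3.18, SE 0.69, adjusted p = 0.0176), Nfkb1 (-2.81, SE 0.64, adjusted p = 0.0209) and Nfkbia (-2.45, SE 0.48, adjusted p = 0.0118). Nfkb2 (-2.39, adjusted p = 0.0545) and Bcl3 (-3.05, adjusted p = 0.0849), which fell at 16 months, missed the threshold here. Rela (-0.77), Relb (-0.86) and Nfkbiz (-3.21, SE 1.61) did not pass either. The calls for Nfkb1, Nfkbie and Tnfaip3 ended when the second WT sample of 16 months was left out (adjusted p = 0.0646, 0.0544 and 0.0525), with the remaining WT sample taken to vary like the other groups. That of Nfkbie also ended without the first WT sample (adjusted p = 0.0574), and that of Tnfaip3 without WT sample 3, KO sample 2 or KO sample 3 of 4 months (adjusted p = 0.0506, 0.0531 and 0.0508).

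The 4-month and 16-month arrays were on different slides, so a change with age cannot be told apart from a slide effect, and levels of the 2 ages were not tested against each other. As a description, the KO group of 16 months had the lowest of the 4 group means in all 10 genes. The first WT sample of 16 months was below all 4-month samples in 9 of 10 genes and the second in 1, Rela. The second WT sample exceeded the first on all 12 probes, by 0.15 (Nfkbie) to 2.66 (Tnfaip3) over the 10 genes with a median of 1.44. These patterns were not counted over all genes, so they cannot be read as particular to the members. Over 21978 probes, arrays of the first and the second WT sample differed by a scaled median deviation of 0.87 to 0.92. The range over the 7 samples of 4 months was 0.47 to 1.38 for these genes, and over the 4 KO samples of 16 months it was 1.11 to 5.52. KO sample 2 of 16 months was the highest of its group for Rela, Relb and Nfkb2 and the lowest for Nfkb1, Nfkbie, Nfkbiz and Tnfaip3, and KO sample 4 was the highest for Nfkb1, Nfkbia, Nfkbiz and Tnfaip3.

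Likeness of pattern was measured as the root mean square difference between the profiles of 2 genes over the 13 samples, each centred on its own mean, without a test, since all profiles share the same arrays. For Nfkbie, the member with the largest called difference, the 5 closest of 17795 other genes were Nkapd1 (0.32 log2 units), Specc1 (0.43), Tlr4 (0.46), Ppip5k2 (0.48) and Csk (0.52). Tlr4, the receptor for bacterial lipopolysaccharide, and Csk, a kinase that restrains Src family kinases, are known from immune cells. Tlr4 stood at 2.72 ± 0.56 (SD, n = 2) in WT and -0.087 ± 1.29 (SD, n = 4) in KO at 16 months. The closest pairs of members were Rela and Relb (0.35), Nfkb1 and Tnfaip3 (0.50), Nfkb1 and Nfkbia (0.53) and Nfkb2 and Relb (0.55). The farthest pair was Nfkbiz and Rela (1.70). Genes outside the set were often closer. By closeness, Relb ranked 212 for Rela and Rela 36 for Relb, while Tnfaip3 ranked 144 for Nfkb1 and Nfkb1 ranked 7 for Tnfaip3. Of the IkB family members, Nfkbia and Nfkbie were nearest among the members to Nfkb1, Bcl3 to Rel and Nfkbiz to Tnfaip3.

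The other genes of the pathway, 75 of 76 listed having a tested probe, had 25 that fell and 9 that rose at 16 months, with a median of -1.0, where 14.1% of all genes fell and 20.4% rose; these shares apply to each list below. None passed the test at 4 months in either direction, with a median of 0.12. The target genes had a 4-month median of 0.35, beside 0.036 for all genes. Their summed level at 4 months was 364 to 444 in WT and 477 to 595 in KO, while the sums of the other pathway lists overlapped between genotypes. These sums were not tested. Among 19 receptors and adaptors, 8 fell and 2 rose at 16 months (median -0.74). Tnfrsf11a, the RANK receptor, was at 0.83 ± 0.62 (SD, n = 2) in WT and -1.99 ± 0.45 (SD, n = 4) in KO, a fall of 2.83 log2 units (-2.83, adjusted p = 0.000465), and Tnfrsf1b, the second receptor for tumour necrosis factor, differed by -4.23 (SE 1.33, adjusted p = 0.0356), a call that held in 15 of the 27 settings run. The interleukin 1 receptor rose in both chains, Il1r1 by 2.90 (SE 0.60, adjusted p = 0.00534) and Il1rap by 4.40 (SE 0.72, adjusted p = 0.00155). Il1r1 was at 0.50 in WT and 3.39 in KO, and Il1rap was dim in WT, at -3.16, and at 1.24 in KO. Which cells in the samples gave these signals was not tested. Of the 10 activating kinases, which include the IkB kinases, only Map3k14, the NIK kinase of the non-canonical pathway, passed (-2.46, SE 0.64, adjusted p = 0.0155), and the median of this list was -0.0018. The Map3k14 call ended under 5 settings, among them leaving out the second WT sample (adjusted p = 0.118).

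Of 17 other inhibitors, 5 fell and 4 rose (median -1.09). Nfkbid, which encodes the nuclear protein IkBNS, was at 3.42 ± 1.20 (SD, n = 2) in WT and at -1.74 ± 0.91 (SD, n = 4) in KO, a difference of -5.16 (SE 0.58, adjusted p = 0.000237). Otud7b, a deubiquitinase of the A20 family, differed by -5.28 (SE 0.76, adjusted p = 0.000803). Zc3h12a, the ribonuclease Regnase-1 that degrades cytokine messenger RNA, was not well above background on any KO array and at least 15.7-fold lower than in WT (adjusted p = 0.000429), with WT at -0.97 and KO at the floor. Commd1, which promotes the removal of p65 from DNA, rose by 2.66 (SE 0.32, adjusted p = 0.00035).

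Among 29 tested target genes, 11 fell and 3 rose (median -1.49). Il6, the cytokine interleukin 6, was at 2.45 ± 1.49 (SD, n = 2) in WT and at -3.30 ± 2.36 (SD, n = 4) in KO, where it was above background on 2 of 4 arrays (difference -5.76, adjusted p = 0.0055). Il1b, the cytokine interleukin 1 beta, differed by -3.24 (SE 0.73, adjusted p = 0.00798), Irf1, a transcription factor of the interferon response, by -3.22 (SE 0.38, adjusted p = 0.000307), and Plaur, the urokinase receptor, by -2.52 (SE 0.70, adjusted p = 0.0209). The 3 that rose were Ninj1, Sod2 and Vcam1, by 1.30 to 1.91, named after their values were seen: a membrane protein, a mitochondrial antioxidant enzyme and an adhesion molecule. Leaving out the second WT sample of 16 months ended the calls of Il6 (adjusted p = 0.0561), Il1b (adjusted p = 0.0687) and Plaur (adjusted p = 0.223), and left that of Irf1 (adjusted p = 0.00231). Fitted without the 4-month arrays, the data gave 8 falls and 4 rises in the 75 genes. Over all 45598 probes this fit called 2020 lower and 2046 higher, fewer than the joint fit behind the shares above. Of the genes named, Tnfrsf11a, Il1r1, Il1rap, Nfkbid, Zc3h12a, Commd1 and Irf1 passed there, and Tnfrsf1b, Map3k14, Otud7b, Il6, Il1b and Plaur did not.

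**Figure D3:**
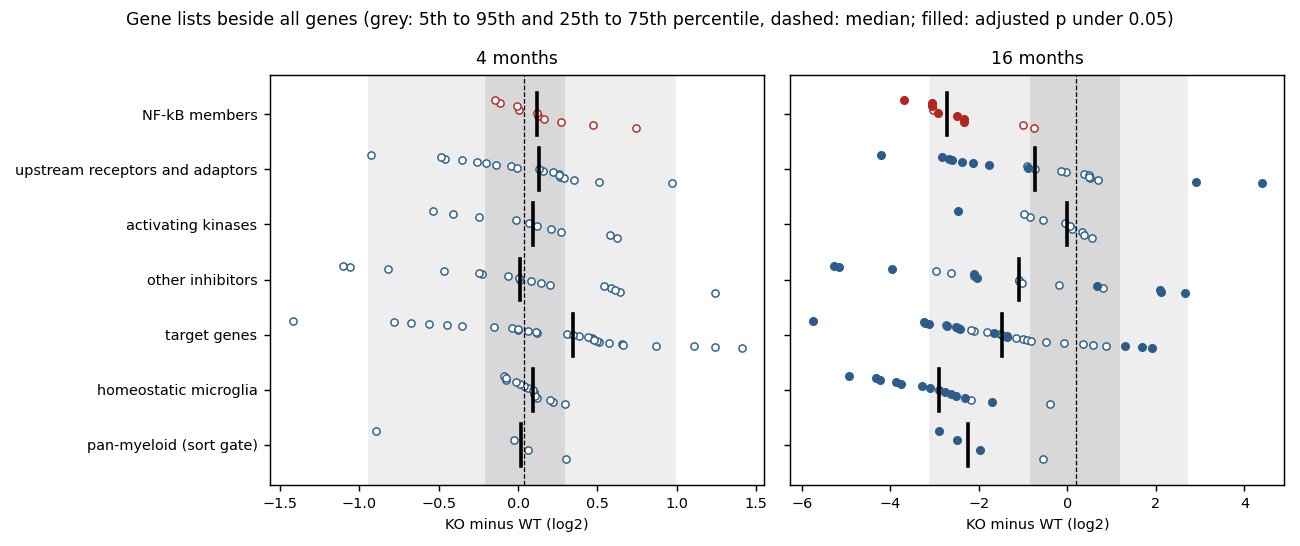
KO minus WT difference (log2) of each gene of the member set, of the 4 pathway lists and of the microglial and myeloid marker lists at 4 months (left) and 16 months (right, wider scale); bars are list medians, filled points have an adjusted p under 0.05, and the grey bands and dashed line give the percentiles and median of all genes. At 16 months the members have a median of -2.72, beside -2.91 for the homeostatic microglial markers and -0.0018 for the activating kinases.

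The 16-month calls depended on how the spread was estimated, since WT had 2 samples and the fit shared 1 spread over both ages. Over the 10 genes the range was 0.47 to 1.38 among the 4-month samples and 1.11 to 5.52 among the KO samples of 16 months. The SEs given for 16 months therefore rest in part on the 4-month samples. When the 16-month arrays were fitted without the 4-month ones, limma kept none of the 7 calls. All 7 had an unadjusted p under 0.05, as had 13327 of 45598 probes in that fit. The differences were unchanged, and the adjusted p was 0.0512 for Nfkbia, 0.0591 for Rel, 0.0759 for Nfkb1, 0.081 for Nfkbie, 0.105 for Nfkb2, 0.12 for Tnfaip3 and 0.151 for Bcl3. Without the second WT sample, 3 genes stayed called, namely Nfkbia (-1.87), Rel (-2.12) and Nfkbie (-3.63), and Nfkb1 (-1.64, adjusted p = 0.056), Nfkb2 (-1.98, adjusted p = 0.0601), Tnfaip3 (-1.61, adjusted p = 0.0702) and Bcl3 (-2.31, adjusted p = 0.125) did not. The sign of all 10 differences at 16 months was negative under every alternative that gave a value. Rela fell significantly when KO sample 2 was left out (-1.15, adjusted p = 0.00922) and under quantile normalization (-1.35, adjusted p = 0.0118), and not under the other alternatives. WT and KO arrays also lay at different positions on the slides, and an effect of position cannot be told apart from genotype.

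**Figure D4:**
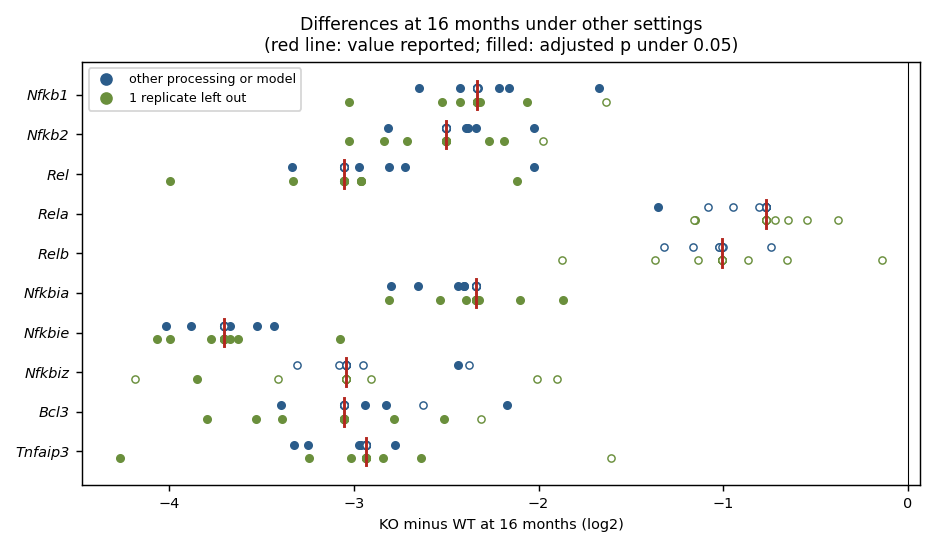
KO minus WT difference (log2) of each gene at 16 months under other processing or models (blue) and with 1 sample left out (green); the red line is the value reported and filled points have an adjusted p under 0.05. Every point lies below 0, Relb reaching -0.14 without the second WT sample, and Nfkbia spans -2.81 to -1.87.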

How the data were processed

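The deposited files of 15 one-colour Agilent arrays hold an intensity per spot, written by Feature Extraction 10.7.3.1 per the file headers, and R 2.15.3 is named in the submitters' processing notes. On bright spots the ratio of processed to background-subtracted signal varied on the 4-month arrays (6.21 to 12.2% coefficient of variation) and almost not at 16 months. The step between these signals thus differed between the ages. From the deposited intensity values, log2 of the processed signal over each array's 75th percentile was computed, with outlier spots left out, spots of a probe averaged and values floored at -4.94. The 45600 probes well above background on at least 3 arrays were fitted with limma 3.58.1 (R 4.3.3), 1 mean per group over 13 samples, with Benjamini-Hochberg adjustment at 0.05 within each contrast, after tests on simulated data. No spot was saturated. The number of arrays limits the precision. The labels do not say what a replicate number stands for, so no block was used in the main fit. At 4 months, WT and KO samples with the same number were not alike (correlation of deviations -0.039 to -0.028). This was not examined at 16 months.

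Named are all members, up to 4 called, non-overlapping genes of each pathway list by size of the 16-month difference, the 5 genes nearest Nfkbie in profile, and Grn. The members and lists were chosen with earlier results of these data known. Probe names were updated through RefSeq. Alternatives were other scalings, background corrections, filters, models and samples left out. The bead arrays of brain regions (154 samples) were not used here.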

Additional observations from a re-analysis of the deposited data

Results flagged for a closer look

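In 5 genes the KO effect differed between the ages by the test of the difference itself (limma, adjusted p under 0.05), each more negative at 16 months: Nfkbie by -3.97, Tnfaip3 by -3.68, Rel by -3.18, Nfkb1 by -2.81 and Nfkbia by -2.45. With 1 sample left out the number of such genes ranged from 2 to 7; Tnfaip3 was called in 9 of 13 of these fits, Nfkbie in 11 and Nfkb1 in 12. Of 24 groups of 4 samples examined on the 12 probes, 3 held a sample far from the others, and chance flags about 1 in 20 groups. The dim probe of Nfkb1 was at -3.72 in KO sample 4 of 16 months and at -4.94 to -4.90 in the other 3. Rel was at -3.84 in KO sample 3 of 16 months and at the floor of -4.94 in the other 3, so that any value above the floor would stand apart there. Rela was at 5.51 in WT sample 3 of 4 months and at 5.88 to 5.95 in the other 3.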

How the results depend on the processing

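Under 14 alternatives and 13 samples left out in turn, member counts at 4 months and rises at 16 months stayed at 0. Fitting only the 16-month arrays, 0 members fell (7 in the report), 8 pathway genes fell (25) and 4 rose (9), with 4066 probes called instead of 13795. Leaving out 1 sample gave 3 to 8 members falling, 12 to 28 pathway genes falling, 5 to 10 rising and 2 to 7 members with a differing effect between ages (5), with the lowest counts of falls and of age differences without the second WT sample and the lowest of rises without the first. With the replicate block, Bcl3 was no longer called at 16 months (adjusted p = 0.0659) and Nfkbiz was (adjusted p = 0.041); Nfkbie lost its difference between ages (adjusted p = 0.103), and 10215 probes were called at 16 months. Nfkbiz passed at 16 months in 3 of 13 other settings and in 1 of 13 with a sample left out. With array weights Bcl3 also lost its call (adjusted p = 0.0719), and with the mean of its probes Nfkb1 lost its difference between ages (adjusted p = 0.199). Higher signals made up 57.5% of called probes at 16 months, and 44.9% when only probes detected on every array set the percentile; the median over all probes was 0.097, and 0.48 with normexp, which was run on median signals and added after seeing the data because no mean signal column was at hand.

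Small differences at 4 months changed sign, none of them called. Rela (0.0055) turned to -0.070 with the percentile over detected probes, -0.11 with quantile normalization, -0.055 with the median spot signal, -0.016 with array weights and -0.062 with normexp. Bcl3 (-0.0045) turned to 0.011, 0.012, 0.11 and 0.015 with quantile normalization, median spot signal, array weights and normexp, and Nfkb1 to -0.20 with the mean of its probes. With 1 sample left out the 4-month values ranged from -0.098 to 0.11 for Rela, -0.20 to 0.30 for Bcl3, -0.13 to 0.33 for Rel, -0.26 to 0.12 for Nfkb2, -0.065 to 0.23 for Nfkbia, -0.13 to 0.47 for Nfkbie and -0.050 to 0.27 for Nfkbiz, and the age difference of Relb from -1.73 to 0.0087. The cause of these changes was not tested. Signal over background limits Rel, Bcl3, Nfkbiz and the second Nfkb1 probe, which reached the floor in KO samples of 16 months. The second Nfkb1 probe was also at the floor in KO sample 2 of 4 months.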
